A study of Mus musculus with 20 samples.

Results

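The subject of this account is a group of 10 mouse genes that fibroblasts and other matrix-building cells use to make the pericellular matrix and elastic fibres: Postn, Tnc, Thbs1, Thbs2, Fap, Thy1, Dpt, Lox, Eln and Fbn1. They were taken by name, through their Ensembl identifiers, from the 49585 gene identifiers counted, and all 10 were found. They were measured by RNA sequencing of total RNA from 18 frozen primary mouse osteosarcomas, malignant tumours of bone in mice of mixed strain (C57BL/6J and 129S/SvJae). The tumours came from mice with 1 altered Trp53 allele: p53R172H/+ (n = 6, here R172H), p53R245W/+ (n = 3, here R245W), p53R270H/+ (n = 5, here R270H) and p53+/- (n = 4). The first 3 carry a missense allele, and p53+/- mice a lost one. The labels give no age or sex of the mice, no tumour site and no state of the other Trp53 allele in a tumour. In addition, 2 libraries came from osteosarcoma cell line 14, labelled p53R245/O and described as heterozygous mutant with loss of heterozygosity, 1 with siRNA against p53 and 1 control. The line is 1 culture grown from 1 tumour, and its labels do not name the amino acid change.

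Matricellular proteins are secreted into the matrix, where they bind collagen, growth factors and cell surface receptors rather than bear load themselves, and they are typically high in developing, healing and tumour-associated tissue. Elastic fibres consist of a core of crosslinked elastin on a scaffold of fibrillin microfibrils, and lysyl oxidases make the crosslinks in elastin and in collagen. In bone, osteoblasts and the cells of the periosteum make several of these proteins, so these genes are not markers of fibroblasts alone.

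Total counts were 20.1 to 29.2 M (megacounts) per tumour library. Levels are in CPM, counts per M counts of a library, and a gene with no count can lie as high as 0.103 to 0.149 CPM, the worth of 3 counts. Trp53, the altered gene, was read at 36.3 to 71.3 CPM in R172H, 57.5 to 74.0 CPM in R245W, 26.5 to 53.2 CPM in R270H and 13.5 to 26.98 CPM in p53+/- tumours. Of the bone markers, Runx2, the osteoblast master regulator, lay between 140 and 519 CPM and Ibsp, bone sialoprotein, between 1308 and 5824 CPM in the 18 tumours, whereas Bglap, osteocalcin, ran from 0.890 CPM in p53+/- 4 to 151 CPM. The sum of 10 osteoblast and osteocyte genes was 2694 to 9349 CPM, and Sost was at 0 in R245W 2. Markers of fibroblasts other than the 10 genes varied: Pdgfra lay at 171.99 to 602 CPM, Dcn, decorin, was as low as 17.2 CPM and Lum, lumican, as low as 5.01 CPM, both in R245W 2, and Tcf21 was at 0 in 16 of 18 tumours. The titles of all R172H and R245W tumours and of p53+/- 1 and 2 carry a serial number, whereas those of all R270H tumours and of p53+/- 3 and 4 do not. The labels do not say whether this marks a batch, and the R270H genotype is set apart from the R172H and R245W genotypes along the same line. Throughout, ± is the standard error for a log2 fold and the standard deviation for CPM, and intervals and limits from counts cover counting error only.

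The levels of the 10 genes varied widely between tumours of the same genotype, and in edgeR's quasi-likelihood test none differed between genotypes after adjustment over the 20616 genes tested. All 10 genes passed the filter on low counts. Of 60 combinations of gene and contrast, 0 had a Benjamini-Hochberg adjusted p under 0.05 in edgeR, and 10 had an unadjusted p under 0.05, which were 2 in each contrast other than R270H against p53+/-. The smallest adjusted p was 0.122, for Thbs2 in R270H against R172H. DESeq2 called 3 combinations and limma voom 0. DESeq2 called more genes in all, 363 in R245W against p53+/- and 348 in R245W against R172H, where its member call was Postn. In R270H against R172H, where it called Thbs2, no setting called more than 2294 of all genes, which was the count of limma voom and not of DESeq2. Over all genes, the share called by edgeR was 0.0776% for R172H against p53+/-, 0.0728% for R245W against p53+/- and 0% for R270H against p53+/-. It was 0.155% for R245W against R172H, 1.24% for R245W against R270H, 5.28% for R270H against R172H and 2.86% in the test for any difference among the 4 genotypes. An unadjusted p under 0.05 was found for 12.3%, 12.5% and 11.5% of all genes in the contrasts of R172H, R245W and R270H against p53+/-, for 10.8% and 18.4% in R245W against R172H and against R270H, and for 23.2% in R270H against R172H. Set against these shares, 2 of 10 genes is close to what all genes show. The median log2 fold of the 10 genes was 0.32 in R172H against p53+/- (6 of 10 above 0, against 48.3% of all genes), -0.50 in R245W against p53+/- (3 of 10, against 47.3%) and 0.02 in R270H against p53+/- (5 of 10, against 48.7%). Between mutants it was -0.84 in R245W against R172H (1 of 10 above 0, against 49.7%), -0.32 in R245W against R270H (3 of 10, against 48.5%) and -0.50 in R270H against R172H (4 of 10, against 48.9%). The median over all genes lay between -0.04 and 0 in the 6 contrasts. The medians of the 10 genes depended on single tumours and, other than in R245W against R172H, on the kind of title as a covariate. With that covariate they were 0.90 in R172H, -0.21 in R245W and -0.22 in R270H against p53+/-. Between mutants they were 0.19 in R245W against R270H, -1.32 in R270H against R172H and still -0.84 in R245W against R172H. Leaving out 1 tumour at a time, they ran from 0.16 without R172H 4 to 0.67 without p53+/- 4 in R172H against p53+/-, and from -0.87 without R245W 1 to -0.28 without p53+/- 4 in R245W against p53+/-. They ran from -1.24 without R245W 1 to -0.42 without R245W 2 in R245W against R172H, from -0.895 without R245W 1 to -0.0185 without R245W 2 in R245W against R270H, and from -0.17 without R270H 3 to 0.15 without p53+/- 4 in R270H against p53+/-. In R270H against R172H they moved less, from -0.64 without R172H 2 to -0.39 without R172H 3. Contrasts that share a group share its tumours and are not independent.

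**Figure D1:**
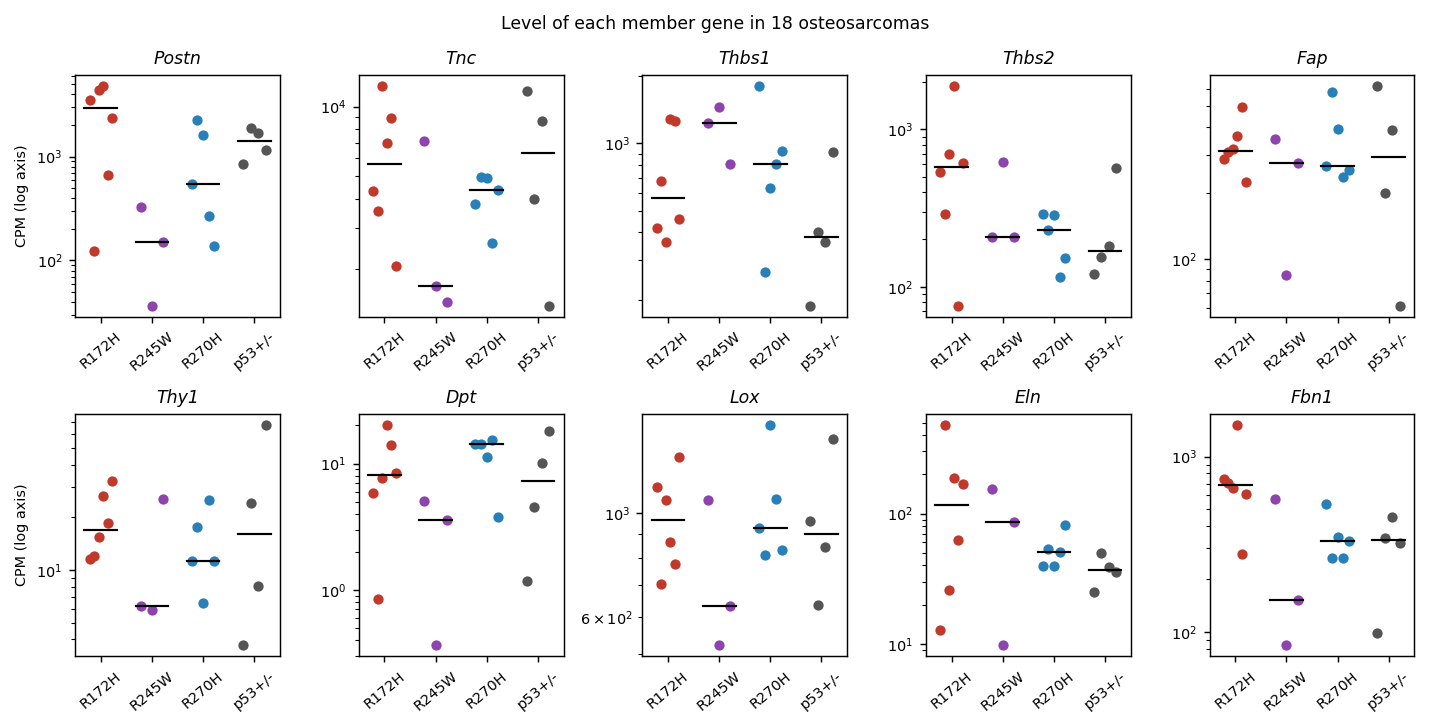
Level of each of the 10 genes in 18 osteosarcomas, in CPM on a log axis that differs by panel; each point is 1 tumour, and bars are medians of R172H (n = 6), R245W (n = 3), R270H (n = 5) and p53+/- tumours (n = 4). The 3 R245W tumours lie below all 4 p53+/- tumours for Postn, and for the other genes each genotype overlaps p53+/-.

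Postn showed the largest separation. It encodes periostin, a secreted integrin-binding protein of the periosteum and of tumour stroma (chromosome 3, 54361109 to 54391037, plus strand, GRCm38). Its level was 329, 36.5 and 150 CPM in R245W tumours, against 853, 1898, 1674 and 1156 CPM in p53+/- tumours. All 3 R245W tumours thus lay below every p53+/- tumour, the only 1 of the 60 combinations without overlap. Over all genes, 9.11% did not overlap in this contrast, 2.15% in R172H against p53+/-, 3.5% in R270H against p53+/-, 5.24% in R245W against R172H, 12.9% in R245W against R270H and 6.72% in R270H against R172H. The log2 fold was -3.14 ± 1.12, with an unadjusted p of 0.0121 and an adjusted p of 0.272 in edgeR. R172H tumours ran from 123 CPM in R172H 2 through a median of 2933 to 4822 CPM, the highest level of the series, in R172H 4. R245W lay below R172H by a log2 fold of -3.92 ± 1.14 (adjusted p = 0.215 in edgeR), and the groups overlapped because R172H 2 was as low as the R245W tumours. R270H tumours held 547, 2254, 1621, 269 and 137 CPM, a spread from the R245W range to above the p53+/- range. The log2 fold of R245W against R270H was -2.50 ± 1.06 (edgeR, adjusted p = 0.220). It was -1.39 in limma voom with sample weights (adjusted p = 0.429), and with the kind of title as a covariate its adjusted p was 0.628 in edgeR. In the test for any difference among the 4 genotypes Postn had an unadjusted p of 0.0179 and an adjusted p of 0.141 in edgeR, where 22.1% of all genes had an unadjusted p under 0.05. In DESeq2 the adjusted p of Postn was 0.0436 for R245W against p53+/-, 0.00155 for R245W against R172H and 0.0207 for any difference.

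R245W 2, where Postn was lowest, had a summed level of 15 other fibroblast genes of 29526 CPM, the lowest of all tumours, whereas R245W 1 and R245W 3 had 83113 and 112320 CPM. Across groups that sum was 29526 to 112320 CPM in R245W and 62087 to 131100 CPM in p53+/- tumours, and Col1a2 made up 47.7% of it. Col1a1 and Col1a2, which osteoblasts also make, together gave 78.2% to 98.95% of the sum in each tumour. Without these collagen genes the sum of the other 13 was 2750, 999 and 1176 CPM in R245W tumours, against 2451, 6073, 2020 and 7820 CPM in p53+/- tumours, so that 2 of the 3 R245W tumours lay below all p53+/- tumours. Of the 14 fibroblast genes tested, 12 had a log2 fold below 0 in R245W against p53+/- (median -0.94), where 47.3% of all genes lay above 0. EdgeR called 0 of the 14. Lum, chosen after its values were seen, was 5.01 to 33.8 CPM in R245W and 97.0 to 450 CPM in p53+/- tumours. These groups did not overlap for Lum, nor for 9.11% of all genes. The part of these cells in the Postn difference was not tested. In bulk tumours fewer cells of a type and less RNA per cell cannot be told apart.

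Tnc encodes tenascin-C, a large glycoprotein that modulates adhesion (chromosome 4, 63959785 to 64047015, minus strand). It ranged from 2044 through a median of 5652 to 12330 CPM in R172H tumours. R245W tumours had 7116, 1675 and 1432 CPM and R270H tumours 3803, 4960, 4902, 2579 and 4381 CPM, against 11694, 3993, 8631 and 1380 CPM in p53+/- tumours. The p53+/- group alone spanned nearly the whole range of the series, and every genotype overlapped every other. The lowest p was that of R245W against p53+/- (log2 fold -1.03 ± 0.69, edgeR, adjusted p = 0.562), and that log2 fold was -2.14 without R245W 1 and -0.58 without p53+/- 1.

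The 2 thrombospondins, trimeric proteins that bind the receptors CD36 and CD47, had different patterns. Thbs1, which also activates latent TGF-beta (chromosome 2, 118111876 to 118127133, plus strand), stood at 1236, 1444 and 807 CPM in R245W tumours, against 188, 402, 363 and 912 CPM in p53+/- tumours. Of the R245W tumours, 2 lay above all p53+/- tumours and 1 below p53+/- 4. The log2 fold was 1.28 ± 0.57 (unadjusted p = 0.0382, adjusted p = 0.368 in edgeR). Thbs1 reached 363, a median of 570 and 1288 CPM in R172H and 1809, 266, 631, 805 and 922 CPM in R270H tumours. It was the only member whose log2 fold was above 0 in R245W against R172H.

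Thbs2 (chromosome 17, 14665500 to 14694235, minus strand) had 291, 229, 287, 116 and 152 CPM in R270H tumours, against a lowest value of 75.6, a median of 573 and a highest of 1899 CPM in R172H tumours. Of the 6 R172H tumours, 5 lay above every R270H tumour, R172H 2 only just so at 292 CPM, and the groups overlapped through R172H 5. The log2 fold was -1.62 ± 0.61 (unadjusted p = 0.0167, adjusted p = 0.122 in edgeR, and 0.0431 in DESeq2), and without R172H 4 it was -1.05. R245W tumours had 209, 617 and 207 CPM and p53+/- tumours 121, 155.4, 181 and 565 CPM. The sequences upstream of Postn, Tnc and Thbs2, from which these 3 matricellular transcripts start are given here from RefSeq's GRCm38.p6 reference, 5′ to 3′ on the gene's own strand, as the 150 bases that end next to RefSeq's start. For Postn and Thbs2 that start does not coincide with the gene boundary printed above, and distances are counted from RefSeq's start. Of the 10 genes, 5 matched an entry (Postn, Tnc, Thbs2, Dpt and Fbn1), and those are shown whose window holds no annotated exon of the gene. Capitals mark TATAAA, the letters of the TATA box, or its reverse complement.
Postn, chr3:54360957-54361106, plus strand: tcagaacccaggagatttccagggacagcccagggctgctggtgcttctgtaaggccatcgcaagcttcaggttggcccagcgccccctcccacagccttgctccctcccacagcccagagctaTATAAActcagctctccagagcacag
Tnc, chr4:64047016-64047165, minus strand: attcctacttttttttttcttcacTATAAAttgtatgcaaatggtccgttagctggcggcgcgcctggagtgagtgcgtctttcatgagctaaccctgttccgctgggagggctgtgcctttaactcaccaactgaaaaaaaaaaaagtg
Thbs2, chr17:14694263-14694412, minus strand: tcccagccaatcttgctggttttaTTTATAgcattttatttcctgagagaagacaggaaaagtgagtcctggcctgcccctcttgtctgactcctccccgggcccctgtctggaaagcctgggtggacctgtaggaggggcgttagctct
The match of Postn lay 26 to 21 bases before the start, and those of Tnc and, on the reverse strand, Thbs2 lay 126 to 121 bases before it. TATAAA occurred on either strand within 250 bases before the start in 12.4% of 32851 promoters, and between 50 and 20 bases before it in 2.99%. TGANTCA, the AP-1 motif, and CATTCC, the TEAD motif, neither of which overlaps TATAAA, were also searched on both strands of these 250 bases. They occurred in 6.75% and 12.6% of promoters and in none of the 3 shown.

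Fap and Thy1 encode membrane proteins. Fap, fibroblast activation protein, is a cell surface serine protease of activated fibroblasts (chromosome 2, 62500943 to 62574075, minus strand). R172H tumours had 226, a median of 313 and 493.2 CPM, R245W tumours 355, 85.3 and 274 CPM, and R270H tumours 265, 578, 393, 237 and 254 CPM, against 620, 200, 388 and 61.3 CPM in p53+/- tumours. The 4 p53+/- tumours held both the lowest and the highest Fap level of the series. Among the 10 genes its test for any difference gave the largest adjusted p, 0.858 in edgeR.

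Thy1, the GPI-anchored CD90 antigen that mouse fibroblasts, T cells and neurons carry (chromosome 9, 44043384 to 44048579, plus strand), was low. It had 11.6, a median of 17.0 and 32.2 CPM in R172H, 6.20, 5.92 and 25.3 CPM in R245W, and 11.2, 17.6, 6.43, 25.1 and 11.3 CPM in R270H tumours, against 3.71, 24.1, 8.07 and 67.7 CPM in p53+/- tumours. The highest value, in p53+/- 4, came with the highest summed level of 8 skeletal muscle genes of any tumour, 2183 CPM, and with 11.3 CPM for 8 T and NK cell genes, near the low end of their range. Whether these cells contribute to the Thy1 value was not tested. The log2 fold of R245W against p53+/- was -1.09 ± 0.75 (edgeR, adjusted p = 0.5681), and it was -0.14 without p53+/- 4 and -2.11 without R245W 3.

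Dpt encodes dermatopontin, a small matrix protein that binds decorin and aids collagen fibril assembly (chromosome 1, 164796644 to 164824266, plus strand). It had 5.04, 0.364 and 3.59 CPM in R245W tumours, against 14.4, 14.2, 11.3, 15.2 and 3.76 CPM in R270H tumours. R270H 5 alone kept these groups from separating. The log2 fold was -1.97 ± 0.91 (unadjusted p = 0.0437, adjusted p = 0.256 in edgeR). With the kind of title as a covariate it was 0.10 (adjusted p = 0.987 in edgeR), so that the direction depends on that term. R172H tumours ran from 0.844 through a median of 8.10 to 20.2 CPM, and p53+/- tumours had 1.18, 4.56, 10.01 and 18.04 CPM.

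Lox encodes lysyl oxidase, the copper enzyme that starts the crosslinking of collagen and elastin (chromosome 18, 52516067 to 52529867, minus strand). It was the steadiest of the 10 genes. R172H tumours had 704, a median of 965 and 1318 CPM, R245W tumours 1067, 522 and 633 CPM and R270H tumours 927, 814, 1541, 1072 and 835 CPM, against 960, 635, 844 and 1438 CPM in p53+/- tumours. All groups overlapped. Its lowest p was that of R245W against R270H (log2 fold -0.51 ± 0.34, edgeR, adjusted p = 0.441).

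Eln encodes tropoelastin, the soluble precursor of the elastic core (chromosome 5, 134702593 to 134747323, minus strand). R172H tumours spread from 12.9 in R172H 1 through a median of 116 to 480 CPM in R172H 2, against 24.96, 49.4, 38.6 and 35.5 CPM in p53+/- tumours. Of the 6 R172H tumours, 4 lay above all p53+/- tumours, and R172H 1 lay below them. This gave a log2 fold of 1.89 ± 0.80 (unadjusted p = 0.0295, adjusted p = 0.357 in edgeR). It was 1.197 without R172H 2 and 0.55 in limma voom with sample weights. R245W tumours had 153, 9.74 and 85.9 CPM, and R270H tumours lay close together at 39.4, 53.8, 39.7, 50.7 and 81.4 CPM.

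Fbn1 encodes fibrillin-1, the main protein of microfibrils (chromosome 2, 125300594 to 125507993, minus strand). R172H tumours had 279, a median of 685 and 1516 CPM, against 97.9, 344, 454 and 320 CPM in p53+/- tumours. In 5 of 6 R172H tumours Fbn1 exceeded every p53+/- tumour, the exception being R172H 5. This gave a log2 fold of 1.16 ± 0.52 (unadjusted p = 0.0395, adjusted p = 0.387 in edgeR). R245W tumours had 575, 83.8 and 152 CPM and lay below R172H by a log2 fold of -1.43 ± 0.59 (edgeR, adjusted p = 0.394), which was -2.62 without R245W 1. R270H tumours had 534, 264, 348, 263 and 331 CPM, with a log2 fold of -1.06 ± 0.48 against R172H (edgeR, adjusted p = 0.194). In the test for any difference the unadjusted p of Fbn1 was 0.0404 and the adjusted p 0.205 in edgeR.

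**Figure D2:**
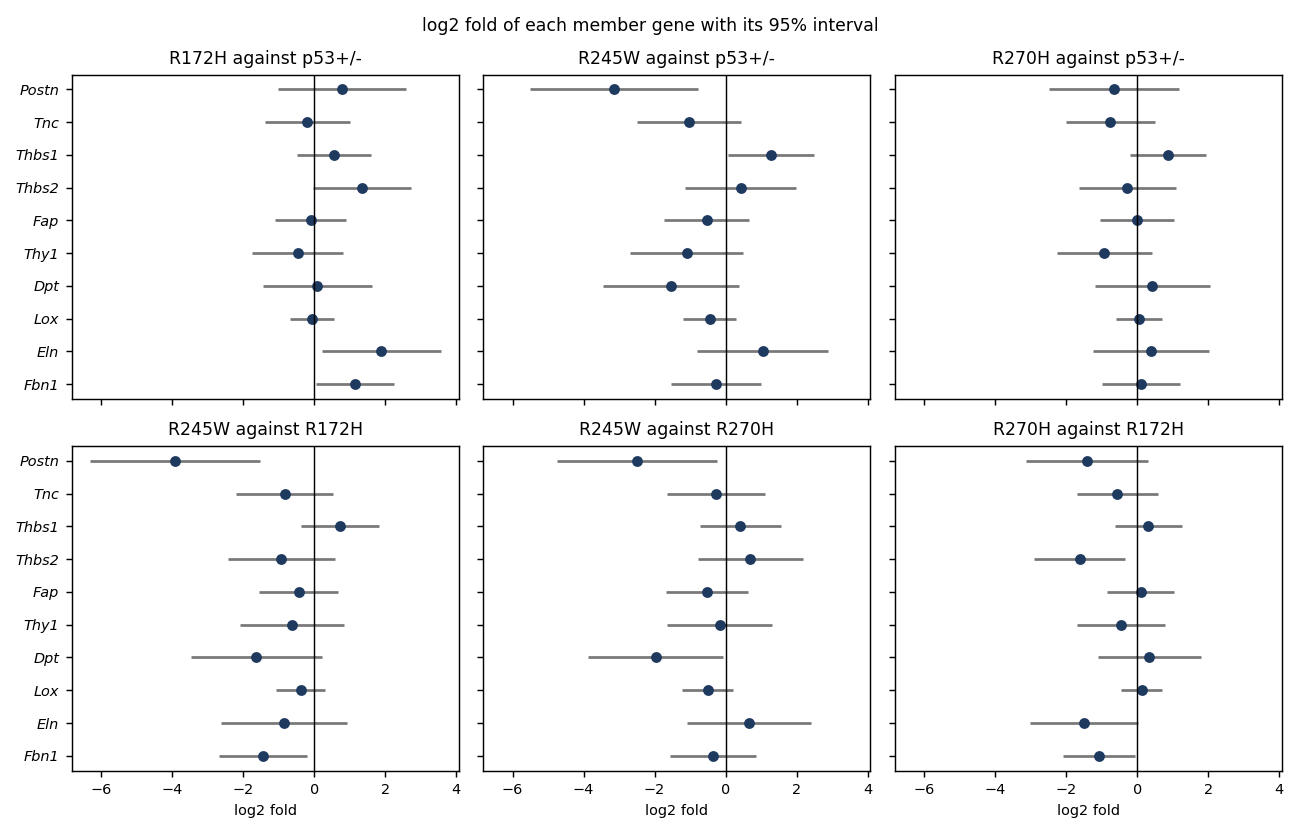
Log2 fold of each of the 10 genes in 6 contrasts of tumour genotypes, with lines for the 95% interval of edgeR's quasi-likelihood fit on 18 tumours, not adjusted for the number of genes. Postn lies farthest from 0 in the 3 contrasts of R245W, at -3.14, -3.92 and -2.50, and intervals of most other genes include 0.

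Dpt, Thbs1, Fbn1, Tnc, Eln and Lox each overlap an annotated gene on the opposite strand. Whether counting used strand is not given in the sources used here, so reads of the overlapping parts cannot be told apart.

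Compared per length, as CPM per kilobase of annotated exon, the 10 genes spanned a wide range of levels. Tnc was highest, with a median of 561 CPM per kilobase over the 18 tumours, followed by Lox (188), Thbs1 (122), Postn (115), Fap (52.7), Thbs2 (36.9) and Fbn1 (28.5). Eln (6.18), Dpt (4.70) and Thy1 (4.56) were lowest. Neighbours in this order overlapped in range in every case. Tnc exceeded Lox in 16 of 18 tumours and Fbn1 exceeded Eln in 17 of 18. Other neighbours often changed places between tumours. The first gene was the higher for Thbs1 and Postn in 9 of 18, Postn and Fap in 10 of 18 and Thbs2 and Fbn1 in 10 of 18. For Eln and Dpt it was so in 9 of 18 and for Dpt and Thy1 in 8 of 18. Such a split does not mean like levels, as the medians of Postn (115) and Fap (52.7) show.

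The 10 genes differed more between tumours of 1 genotype than most genes do. The pooled standard deviation of log2 CPM within genotypes was 1.70 for Postn, 1.46 for Dpt and 1.42 for Eln. These lay at the 96.9th, 95.05th and 94.6th percentile of the 16016 genes with a mean of at least 1 CPM, whose median was 0.44. Thbs2 (1.14), Thy1 (1.07), Tnc (1.004), Fap (0.88), Fbn1 (0.87) and Thbs1 (0.84) followed, between the 90.8th and the 83.1st percentile. Lox, at 0.46 and the 52.6th percentile, varied like a typical gene. From the lowest to the highest tumour, Postn spanned 132-fold, Dpt 55.5-fold, Eln 49.2-fold and Lox 2.96-fold. R245W 2 was the lowest of the 18 tumours for 5 genes (Postn, Dpt, Lox, Eln and Fbn1) and among the lowest 3 for 8 of 10. For the other 2, Thbs1 and Thbs2, it was among the highest 3. R172H 4 was the highest for 4 genes (Postn, Thbs2, Dpt and Fbn1) and among the highest 3 for 7. R172H 4 also had the lowest sums of 8 chondrocyte genes (321 CPM) and 10 osteoblast and osteocyte genes (2694 CPM), and their part in these ranks was not tested.

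Across the 18 tumours the genes did not rise and fall as 1 block. Of 45 pairs, 33 had a Pearson r of log2 CPM above 0 and 12 below 0, and the median r was 0.14. In permutation tests 10 pairs had an unadjusted p under 0.05 and 1 passed Benjamini-Hochberg adjustment over the 45 pairs, that of Tnc and Fap. Their r was 0.753 (n = 18 tumours, permutation p = 0.00016, adjusted 0.0072), and Spearman's rho was 0.779 (permutation p = 0.0002, adjusted 0.009). Leaving out p53+/- 4 and R245W 3, the 2 tumours farthest from the median of Tnc, r was again 0.753. With genotype means removed r was 0.776. It was 0.719 among the 11 tumours with a serial number in the title and 0.870 among the 7 without. Tnc and Thy1 had a negative r (-0.520, permutation p = 0.0273, adjusted 0.179), which was -0.296 without the same 2 tumours. It was -0.716 with genotype means removed, -0.312 among the 11 tumours with a serial number and -0.914 among the 7 without. Postn and Dpt had an r of 0.646 (permutation p = 0.00362, adjusted 0.0815), which was 0.305 without R245W 2 and R172H 2 and so rests on those tumours. All these values come from 1 set of libraries and share their depth and composition.

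**Figure D3:**
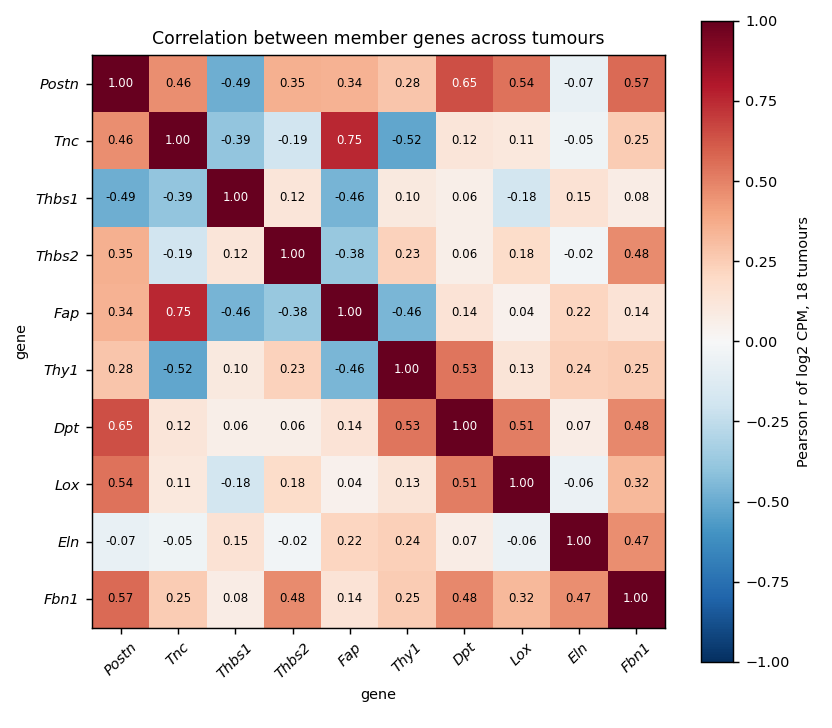
Pearson r of log2 CPM between each pair of the 10 genes across 18 tumours, with red for positive and blue for negative values. The pair of Tnc and Fap has the highest r off the diagonal, 0.75, and Thbs1 has negative values with Postn, Tnc and Fap.

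Summed levels of marker genes of 10 cell types were set against the 10 genes, a total of 100 relations, of which 13 had an unadjusted permutation p under 0.05 and 1 passed adjustment over the 100. The sum of 8 chondrocyte genes, 76.2% of it from Col11a2, and Thbs2 had r = -0.764 (n = 18 tumours, permutation p = 0.00021, adjusted 0.021) and rho = -0.721 (permutation p = 0.00123, adjusted 0.123). Without R172H 4 and R172H 3, the tumours farthest from the median of the chondrocyte sum, r was -0.593. With genotype means removed r was -0.737, and it was -0.782 among tumours with a serial number and -0.692 among those without. The sum ran from 522 to 2343 CPM (median 1924) in R270H, against 321 to 2304 CPM (median 1179) in R172H tumours. That is the contrast where Thbs2 had its lowest p. Of the 7 chondrocyte genes tested, however, 6 had a log2 fold below 0 there (median -1.42), so the sum does not stand for the whole list. The part of the sum in the Thbs2 difference was not tested.

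**Figure D4:**
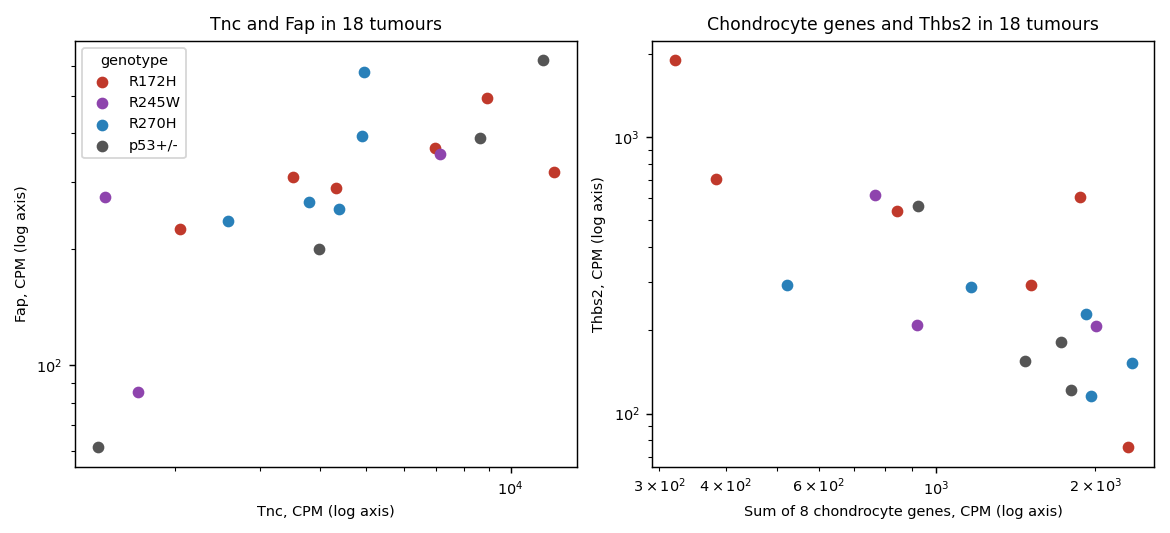
Fap against Tnc (left) and Thbs2 against the sum of 8 chondrocyte genes (right), in CPM on log axes, with 1 point per tumour and colours for R172H, R245W, R270H and p53+/-. The r of log2 CPM over 18 tumours is 0.753 on the left and -0.764 on the right, and points of each genotype are scattered along both trends.

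Outside the group, the genes whose log2 CPM followed each member most closely over the 18 tumours, among 13332 genes, were chosen for the highest r and are given as a description. Postn was followed by Col6a1 (r = 0.906) and Col6a2 (0.869), which encode chains of collagen VI, and by Plekhb2 (0.872). Fap was followed by Ppfia2 (0.911) and Nlrp10 (0.901). For Thy1 they were Arl4c (0.888) and the imprinted non-coding RNAs Meg3 (0.863) and Mirg (0.843). Dpt went with Galnt16 (0.846), Tpm2 (0.846) and Efemp1 (0.844), which encodes fibulin-3. Fbn1 went with Grin2a (0.822), Sipa1l2 (0.809) and Col12a1 (0.808), the gene of collagen XII. For Tnc the nearest were Fbxo7 (0.837), Steap4 (0.830) and Zzef1 (0.819), and for Lox Slc36a4 (0.850), Tmed3 (0.848) and Col23a1 (0.819). Thbs2 was followed by Gzmc (0.840), Arsi (0.825) and Tagln2 (0.819). Eln and Thbs1 had the least close partners, Lbp for Eln (0.772) and Farp1 for Thbs1 (0.748).

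Among 20 other matricellular genes, all tested, 0 were called in any of the 6 contrasts by edgeR, where 24 of 120 combinations had an unadjusted p under 0.05. Against p53+/- these were 1 of 20 in R172H (12.3% of all genes), 6 in R245W (12.5%) and 2 in R270H (11.5%). Between mutants they were 6 in R245W against R172H (10.8%), 4 in R245W against R270H (18.4%) and 5 in R270H against R172H (23.2%). DESeq2 called 10, of which 4 in R245W against R172H, where it called 348 of all 20616 genes. Limma voom called 1, in R270H against R172H, where it called 2294 of all genes. The median log2 fold of the 20 genes was 0.56 in R172H against p53+/- (14 of 20 above 0, against 48.3% of all genes). It was -1.04 in R245W against R172H (4 of 20 above 0, against 49.7%), -0.70 in R245W against R270H (2 of 20, against 48.5%) and -0.54 in R245W against p53+/- (8 of 20, against 47.3%). For R270H it was 0.06 against p53+/- (11 of 20, against 48.7%) and -0.06 against R172H (10 of 20, against 48.9%). The lowest p in the test for any difference belonged to Smoc1 and Smoc2, which encode SPARC-related calcium-binding proteins, and to Spp1, osteopontin. Smoc2 averaged 7.58 ± 6.53 CPM in R245W tumours, against 150 ± 136 CPM in R172H tumours (log2 fold -4.35 ± 1.18, edgeR, adjusted p = 0.181), without overlap. Smoc1 averaged 1.03 ± 0.49 CPM in R245W and 6.34 ± 6.58 CPM in R172H tumours (log2 fold -2.56 ± 0.66, edgeR, adjusted p = 0.167), also without overlap. Over all genes, 5.24% did not overlap between these groups. Spp1 averaged 2409 ± 1790 CPM in R270H tumours, against 558 ± 227 CPM in p53+/- tumours (log2 fold 2.04 ± 0.62, edgeR, adjusted p = 0.221).

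The 19 other elastic fibre and crosslinking genes gave 0 calls in edgeR, with 18 of 114 combinations at an unadjusted p under 0.05. Against p53+/- these were 1 of 19 in R172H (12.3% of all genes), 3 in R245W (12.5%) and 0 in R270H (11.5%). Between mutants they were 7 in R245W against R172H (10.8%), 3 in R245W against R270H (18.4%) and 4 in R270H against R172H (23.2%). DESeq2 called 6, of which 3 in R245W against R172H, where it called 348 of all 20616 genes. Limma voom called 2, both in R270H against R172H, where it called 2294 of all genes. The median log2 fold of the 19 genes was 0.50 in R172H against p53+/- (16 of 19 above 0, against 48.3% of all genes). It was -0.71 in R245W against R172H (4 of 19 above 0, against 49.7%), -0.47 in R245W against R270H (7 of 19, against 48.5%) and -0.35 in R245W against p53+/- (6 of 19, against 47.3%). For R270H it was 0.03 against p53+/- (10 of 19, against 48.7%) and -0.31 against R172H (3 of 19, against 48.9%). Mfap2, a microfibril protein that binds fibrillin, averaged 1.06 ± 0.35 CPM in R245W tumours, against 21.97 ± 24.98 CPM in R172H tumours (log2 fold -4.32 ± 0.99, edgeR, adjusted p = 0.132). Fbn2, the fibrillin of early development, averaged 8.93 ± 9.08 CPM in R245W, against 220 ± 163 CPM in R172H tumours (log2 fold -4.55 ± 1.203, edgeR, adjusted p = 0.180). Neither gene overlapped between these groups, where 5.24% of all genes do not. Loxl1, a lysyl oxidase relative that acts on elastin, averaged 30.9 ± 29.9 CPM in R245W and 177 ± 84.2 CPM in R172H tumours (log2 fold -2.47 ± 0.72, edgeR, adjusted p = 0.215).

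Of 9 receptors of matricellular proteins, Itgb1 passed in edgeR, in R270H against R172H, where 5.28% of all genes passed. Of 54 combinations of receptor and contrast, 5 had an unadjusted p under 0.05 in edgeR. Against p53+/- these were 1 of 9 in R172H (12.3% of all genes) and 1 in R270H (11.5%). Between mutants they were 1 in R245W against R270H (18.4%) and 2 in R270H against R172H (23.2%). DESeq2 called 1 in R270H against p53+/-, where it called 320 of all 20616 genes. It called 1 in R245W against R270H (1194 of all genes) and 1 in R270H against R172H. Limma voom called 1 in R245W against R270H, where no setting called more than 1194 genes. In R270H against R172H it called 2, and 2294 of all genes. Itgb1 encodes integrin beta-1, part of many collagen and fibronectin receptors. It averaged 903 ± 166 CPM in R270H tumours, against 505 ± 82.7 CPM in R172H tumours, without overlap, as did not 6.72% of all genes. The log2 fold of Itgb1 was 0.88 ± 0.16 (edgeR, adjusted p = 0.00982), and in the test for any difference the adjusted p was 0.0159. With the kind of title as a covariate the log2 fold was 1.10 with an adjusted p of 0.454 in edgeR, so the call is lost there. Leaving out 1 tumour at a time kept the adjusted p between 0.00618 and 0.0283. Against p53+/- (470 ± 68.1 CPM) the log2 fold of R270H was 0.84 ± 0.18 (edgeR, adjusted p = 0.124). For Cd36, a thrombospondin receptor, the log2 fold of R270H against R172H was 1.52 ± 0.59 (edgeR, adjusted p = 0.133), and for Sdc4, syndecan-4, that of R172H against p53+/- was -0.69 ± 0.31 (adjusted p = 0.387).

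In cell line 14, 8 of the 10 genes were read at 1 CPM or more in at least 1 library. The libraries held 73.4 M (p53 siRNA) and 64.1 M counts (control), and Trp53 stood at 30.6 CPM with p53 siRNA and 94.9 CPM in the control, a log2 ratio of -1.63. There is 1 library each, so no test was made and ratios are given with exact intervals of 95% for counting error. Thbs1 (3479 CPM with siRNA, 3336 CPM in control) and Lox (2891 and 2756 CPM) lay above all 18 tumours in both libraries, as did 16.9% of all genes. Tnc (392.3 and 446 CPM), Fap (0.464 and 0.297 CPM) and Eln (0.0545 and 0 CPM) lay below all tumours, as did 25% of all genes. The Fap values rest on 34 and 19 counts. For Eln there were 4 counts with siRNA and none in the control, which allows up to 0.0468 CPM. Postn (496 and 510 CPM), Thbs2 (1836 and 1498 CPM), Thy1 (19.0 and 12.8 CPM), Dpt (5.06 and 2.43 CPM) and Fbn1 (388 and 371 CPM) lay within the tumour range. Marker genes of other cell types were read at various levels in the line. The sum of 7 endothelial genes was 6.57 CPM with siRNA and 5.71 CPM in control, and that of 7 macrophage genes 18.04 and 16.8 CPM, both below all tumours. The sum of 9 pericyte and smooth muscle genes was 781 CPM with siRNA and 1030 CPM in control, within the tumour range. Ppbp, a platelet gene, was at 2.10 and 1.81 CPM (tumour median 0.811) and Itga2b, a megakaryocyte integrin, at 4.89 and 3.96 CPM (tumour median 4.39). Sox9, a chondrocyte regulator, was at 16.2 and 18.1 CPM (tumour median 9.11). The sums of their lists, however, lay below all tumours. For 7 platelet and megakaryocyte genes the sum was 8.94 and 7.35 CPM (lowest tumour 9.44). For 8 chondrocyte genes it was 29.3 and 29.4 CPM (lowest tumour 321). Pf4, another platelet gene, was at 0.995 and 0.593 CPM (lowest tumour 2.93). Ibsp was at 0.354 and 0.140 CPM, Bglap at 0.150 and 0.250 CPM, Runx2 at 42.3 and 52.4 CPM and Pdgfra at 160 and 145 CPM. Each of these genes lay below all tumours in both libraries.

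No member measured at 1 CPM or more changed 2-fold with p53 siRNA on the scale of log2(CPM + 1), where 0.0148% of 13556 genes were 2-fold higher and 0.111% were 2-fold lower. The largest ratios were those of the low genes. Dpt, with 371 counts with siRNA against 156 in control, had a log2 CPM ratio of 1.05 (0.78 to 1.33), which is 0.82 with 1 CPM added. Thy1 had 0.57 (0.44 to 0.70) and Thbs2 0.29 (0.28 to 0.31). Fap had 0.64 with an interval that includes 0 (-0.21 to 1.54). Tnc was lower, at -0.19 (-0.21 to -0.16). Postn, Thbs1, Lox and Fbn1 lay between -0.04 and 0.07. Without replicates, these ratios compare 2 libraries and not the treatments.

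**Figure D5:**
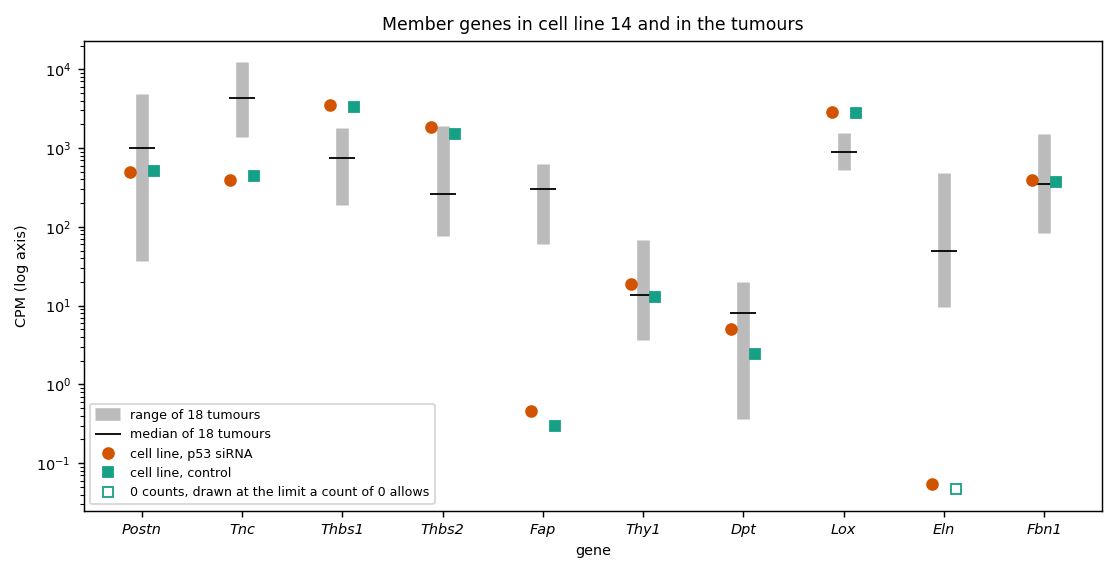
Level of the 10 genes in cell line 14 with p53 siRNA (circles) and control (squares), in CPM on a log axis, beside the range (grey) and median (black) of the 18 tumours; the open square is Eln in the control, with 0 counts, drawn at 0.0468 CPM. Both libraries lie above the tumour range for Thbs1 and Lox and below it for Tnc, Fap and Eln.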

How the data were processed

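The deposited table holds the authors' raw read counts per gene, 1 column per library, for 20 libraries. Per the submitters' processing notes, reads were aligned to GRCm38 with STAR 2.6.0b and DESeq2 was used, in a version not given in the sources used here, as are the counting program, its annotation and its strand setting. Symbols and exon lengths came from GENCODE release 21 (GRCm38), which matched 49326 of 49585 identifiers. Nothing says that tumours came from separate mice, and p-values measure only the spread between these samples. No 2 libraries of a group agreed within sampling noise.

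Counts were analysed with edgeR 4.0.16 in R 4.3.3: filterByExpr (minimum count 10, minimum total 15), TMM scaling, 1 quasi-likelihood fit to 18 tumours with genotype as the factor (14 residual degrees of freedom), and Benjamini-Hochberg adjustment within each contrast at 0.05. log2 CPM used a prior count of 2. Correlations used 100000 permutations, two-sided. The fits were tested on simulated data. Alternatives were DESeq2 1.42.0, its size factors in edgeR, no filter, limma 3.58.1 voom with sample weights, a fit to just the 2 genotypes in question, the kind of title as a covariate, p53+/- tumours with the same kind of title, and leaving out each tumour, and for the line CPM plus 1, CPM plus 0.1 and TMM scaling. Named genes were the 10 members, up to 3 genes per pathway list with the lowest p, the 3 genes most like each member, of which 1 is not reported here, and Trp53. The members and lists were chosen with earlier results of these data known. Cell type sums cover fibroblast, osteoblast and osteocyte, chondrocyte, skeletal muscle, pericyte and smooth muscle, endothelial, platelet and megakaryocyte, macrophage, T and NK cell, and adipocyte genes.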

Additional observations from a re-analysis of the deposited data

Results flagged for a closer look

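Dpt in R270H 5 stood apart from the other 4 R270H tumours, with 3.76 CPM where these had 11.3 to 15.2 CPM. On the scale of log2 CPM the gap to the nearest tumour was 0.89 of the whole range of the group, above Dixon's critical value for 5 samples. On the CPM scale it was 0.658 of the range, which is below that value. Of the 30 groups of gene and genotype examined on the log2 scale, 1 in 20 would be picked out by chance.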

How the results depend on the processing

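No paired analysis was possible because the labels give no shared numbers, and those used here only name tumours. The number of members called was 0 in all contrasts under every setting and every left-out tumour, except under DESeq2, where it was 1 for R245W against p53+/- (Postn), 1 for R245W against R172H (Postn), 1 for R270H against R172H (Thbs2) and 1 for any difference (Postn). Among the folds of single genes followed, that of Dpt in R245W against R270H changed sign, to 0.10 with the kind of title as a covariate. The median of the 10 genes changed sign in the same contrast (0.19 with that covariate) and in R270H against p53+/- (among others, -0.22 with it and -0.17 without R270H 3). Counts over all genes depended on the setting. They ran from 0 (limma voom) to 295 (DESeq2) for R172H against p53+/-, where the main count was 16, and from 4 to 363 for R245W against p53+/- (15). For R270H against p53+/- they ran from 0 to 320 (0), for R245W against R172H from 30 to 348 (32), for R245W against R270H from 8 to 1194 (255) and for R270H against R172H from 1 to 2294 (1088). For any difference the range was 19 to 2475 (590). Where the count was lowest for R245W against R270H, R270H against R172H and any difference, the kind of title was in the model, which leaves p53+/- as the only genotype to estimate it. The cause of the other shifts was not tested. Leaving out single tumours gave 0 to 166, 5 to 30, 0 to 21, 14 to 39, 48 to 411, 469 to 1323 and 185 to 937 in the same order. Groups of 3 to 6 tumours and the spread of these genes limit what can be called.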

Other observations

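Within the marker lists of cell types, edgeR called Ppbp, a platelet chemokine gene, higher (adjusted p = 0.00982) and Cd68, a macrophage lysosomal gene, lower (adjusted p = 0.0445) in R270H than in R172H tumours. In this contrast 5.28% of all genes were called. The macrophage list did not move with Cd68, with 3 of 7 genes above 0 and a median log2 fold of -0.0057. All 6 platelet and megakaryocyte genes tested lay above 0 (median 0.92). With the kind of title as a covariate both calls were lost: the log2 fold was 4.72 for Ppbp, against 3.47 without the covariate (adjusted p = 0.454 with it), and -0.90 for Cd68, against -1.45 without it (adjusted p = 0.751 with it). In the other lists 0 genes were called by edgeR. Over all genes, 10.8% to 23.2% had an unadjusted p under 0.05, depending on the contrast. Of the combinations of gene and contrast in those lists, 13 of 84 had an unadjusted p under 0.05 for other fibroblast genes, 6 of 60 for osteoblast and osteocyte, 3 of 42 for chondrocyte, 0 of 48 for skeletal muscle, 10 of 54 for pericyte and smooth muscle, 7 of 42 for endothelial, 4 of 48 for T and NK cell and 0 of 30 for adipocyte genes. DESeq2 called 5, 1, 1, 0, 2, 0, 0 and 0 of these, in the same order, and limma voom 1, 0, 0, 0, 1, 0, 0 and 1. DESeq2's fibroblast calls were 1 in R172H and 2 in R245W against p53+/- (295 and 363 of all 20616 genes). The others were 1 each in R245W against R172H (348) and R270H (1194). Its chondrocyte call was in R245W against R172H, its osteoblast and pericyte calls in R245W against R270H. Limma voom's were in R245W against R270H and, for adipocyte genes, in R270H against R172H (2294 of all genes). The sum of T and NK cell genes was lowest in R245W 2, at 2.82 CPM with 4 of 8 genes at 0, the tumour that was also lowest for 5 of the 10 genes. It ran from 2.82 to 20.5 CPM in R245W, against 11.3 to 65.6 CPM in p53+/- tumours.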
